A study of Mus musculus with 24 samples.

Results

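The ectodysplasin pathway was followed through 6 of the 56748 genes in the read-count table of the developing mouse molar: the ligand gene Eda, the receptor genes Edar and Eda2r, the adaptor genes Edaradd and Traf6, and the inhibitor gene Nfkbia. The members were listed by name, their gene identifiers were matched to symbols, and all 6 were found in the table and passed the filter on low counts in every comparison. The 24 libraries were bulk RNA of dental mesenchyme from the mandibular first molar of ICR mice, in 8 groups of 3. Undivided mesenchyme was taken at the cap stage on embryonic day 13 (Cap-W) and at the bell stage on embryonic day 15 (Bell-W). The lingual and buccal parts, split with a fine needle, were taken at the cap stage (Cap-L, Cap-B), at the bell stage (Bell-L, Bell-B) and after the cap parts had been kept in culture for 2 days (Cap-L+2D, Cap-B+2D). In every group the mesenchyme was freed from the epithelium with dispase II, and the labels name no transgene, deletion or added agent in any group. The study's methods name sequencing in triplicate in one place and a pair of biological replicates in another, and take the embryos from a small number of litters. How the embryos were pooled over the libraries, and whether the libraries of a group came from separate mothers, is not given in the sources used here. The p-values therefore measure the spread between these libraries, which may be technical. That spread differed by group. Between libraries of a group, chi-square per degree of freedom, which grows as libraries differ beyond counting error, was 1.32 to 9.84 in the divided groups. In the undivided groups it was 7.89 to 161.

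Ectodysplasin is a member of the tumor necrosis factor family that is made as a membrane protein and cut free by furin. Its A1 form binds EDAR, which recruits the adaptor EDARADD and, through TRAF6 and the TAB and TAK1 proteins, activates the IκB kinases. IκBα, the product of Nfkbia, holds NF-κB in the cytoplasm until those kinases mark it for destruction, and Nfkbia is itself a target gene of NF-κB. The A2 form of ectodysplasin binds a different receptor, EDA2R, whose gene is known as a target of p53. In skin appendages and teeth the pathway is known for setting the size of epithelial signaling centers such as the enamel knot, and loss of Eda, Edar or Edaradd in mice and people gives small, misshapen or missing teeth. In the tooth germ, Edar and its downstream signaling are best known from the epithelium.

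Between 20581720 and 39266497 fragments were counted per library, and each member had between 18 counts (Eda2r) and 3637 counts (Nfkbia) in a library. Levels are given as CPM (counts per 1000000 counts) after TMM normalization on 1 scale for all 24 libraries. A gene with 3 counts, the floor used here, had 0.0764 to 0.146 CPM depending on the library, a limit that covers counting error only. All 9 markers of dental mesenchyme, such as Msx1 and Pax9, were above the floor in every group, at a summed level between 5077 and 13962 CPM per library. All 14 epithelial markers were also above the floor in every group, although the mesenchyme had been isolated. Their summed level lay between 97.6 and 923 CPM in 23 libraries and at 2379 CPM in Bell-W replicate 3, which stood apart. Cap-W replicate 1 stood apart in ribosomal RNA, with 5.39% of its counts on Rn18s-rs5.

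A gene was called where edgeR's quasi-likelihood test gave an adjusted p below 0.05 (Benjamini-Hochberg, over all genes tested) together with a log2 fold change larger than 0.5 in size. "Rose" and "fell" are used only for genes called. With 3 libraries against 3, an exact two-sided permutation test of a single gene could not go below 0.1, so the tests rest on the fit across all genes. Many genes of these libraries differed between groups, and the members' counts are given with the share of all genes tested beside them.

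Between the sides at the cap stage, 3 of the 6 members were called (17.5% of all genes), 4 passed the adjusted p alone (42.3%) and 4 had libraries that did not overlap (52.4%). At the bell stage 3 were called (12.9%), 5 passed the adjusted p alone (37.0%) and 5 did not overlap (45.5%). After culture 2 were called (25.1%), 4 passed the adjusted p alone (54.6%) and 4 did not overlap (59.1%). Between the stages in undivided mesenchyme, 2 were called (14.5%), 2 passed the adjusted p alone (16.3%) and 3 did not overlap (36.7%). In the lingual part the stages gave 2 called members (20.0%), 4 at the adjusted p alone (50.1%) and 4 without overlap (55.9%), and in the buccal part 3 (18.7%), 4 (48.0%) and 6 (55.4%).

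Culture came with the highest shares of genes called. Between Cap-L+2D and Cap-L, 3 members were called (35.4% of all genes), 5 passed the adjusted p alone (65.9%) and 5 did not overlap (67.5%). Between Cap-B+2D and Cap-B these counts were 4 (34.5%), 5 (67.2%) and 5 (69.0%). Against the bell stage they were 3 (31.2%), 5 (61.3%) and 6 (67.3%) in Cap-L+2D and 4 (31.8%), 5 (65.7%) and 5 (66.8%) in Cap-B+2D. With so few members, these counts describe the pathway and do not set it apart from other genes.

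**Figure D1:**
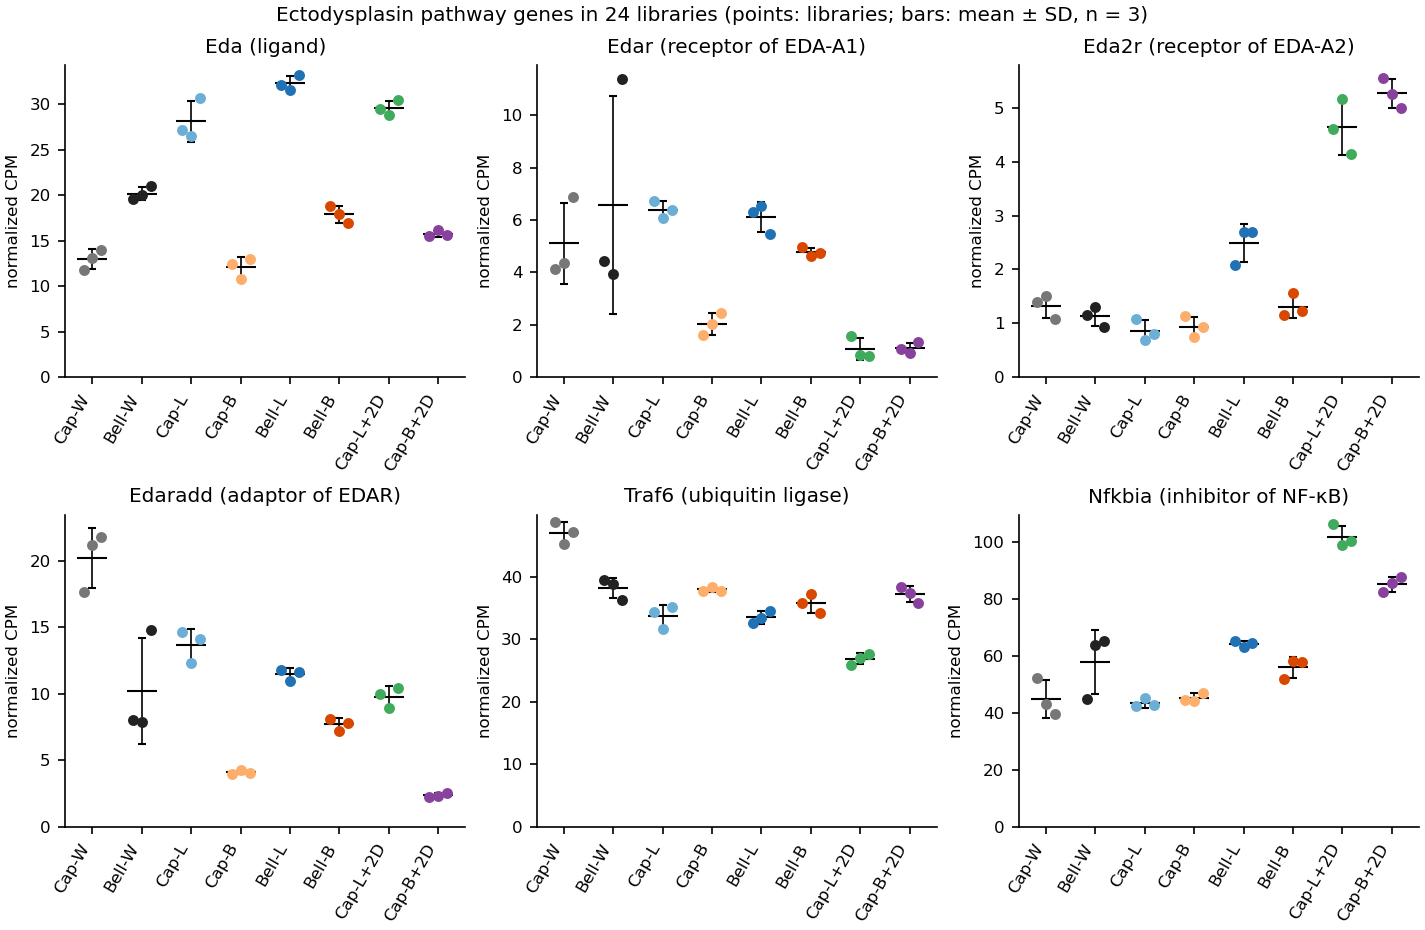
Normalized CPM (vertical axes, starting at 0) of the 6 genes in each library, by group along the horizontal axis; points are libraries, and bars give the mean and SD of 3 libraries. Eda was higher in the 3 lingual groups (26.5 to 33.2 CPM) than in the 3 buccal groups (10.8 to 18.9 CPM), and Edar was lowest and Eda2r and Nfkbia highest in the 2 cultured groups.

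**Figure D2:**
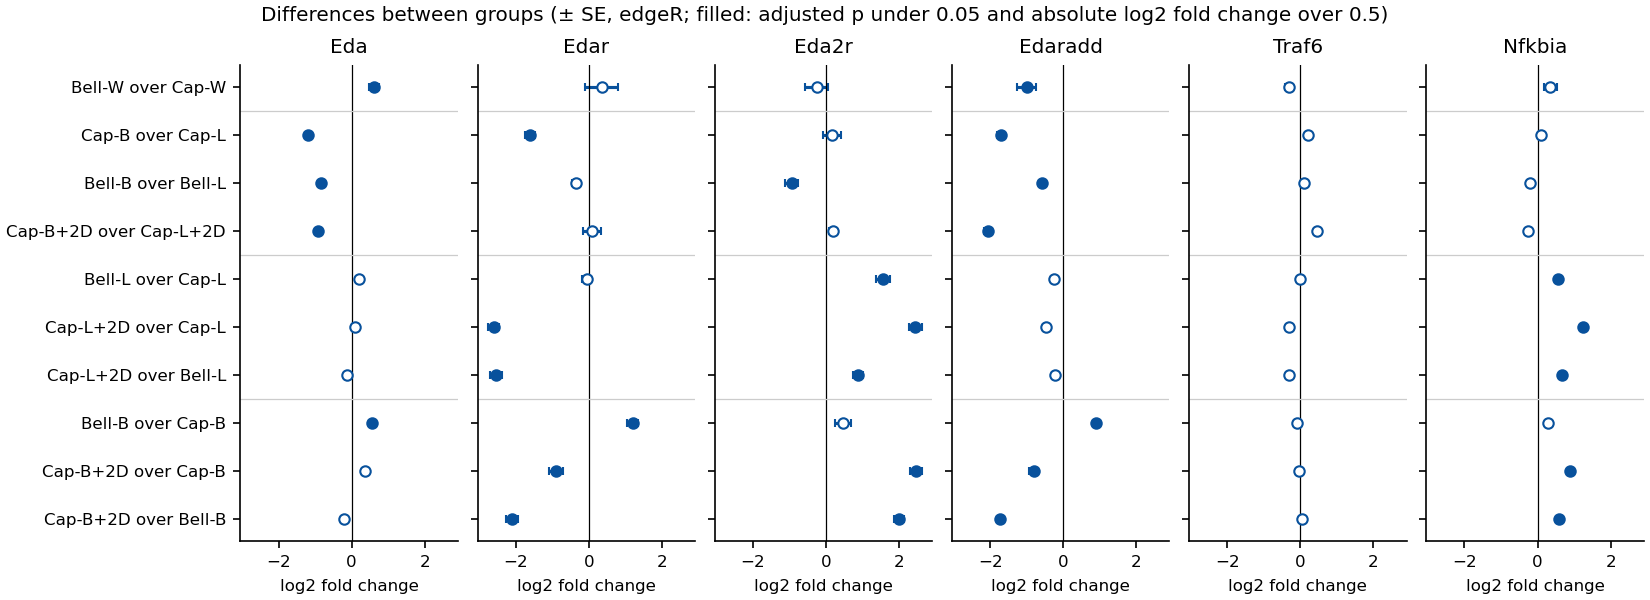
Log2 fold change (horizontal axis) of each gene in 10 comparisons, with the SE from edgeR as bars; filled points were called. From top to bottom the blocks show the stages in undivided mesenchyme, buccal over lingual, the lingual groups and the buccal groups.

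Eda, the ligand gene, was higher in the lingual than in the buccal part in all 3 settings. The gene (ENSMUSG00000059327) lies on chromosome X, 99019212 to 99444368 on the plus strand of GRCm39, and its counted exons span 6825 bases. Cap-L had 27.1, 26.5 and 30.7 CPM of Eda. Cap-B had 12.5, 10.8 and 13.0 CPM. The lowest lingual library was thus above the highest buccal one, and Eda was lower in Cap-B, with a log2 fold change of -1.19 (SE 0.079, adjusted p = 6.68e-10), so that Cap-L had 2.28-fold the level of Cap-B. At the bell stage, Bell-L had 32.2, 31.6 and 33.2 CPM of Eda and Bell-B 18.9, 17.9 and 17.0 CPM. The sides again did not overlap, with a log2 fold change of -0.85 for buccal over lingual (SE 0.055, adjusted p = 1.1e-16). After 2 days of culture, Cap-L+2D had 29.5, 28.8 and 30.5 CPM and Cap-B+2D 15.5, 16.2 and 15.6 CPM, with a log2 fold change of -0.92 (SE 0.057, adjusted p = 4.77e-13).

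The side difference of Eda was larger at the cap stage than in the other settings. A test of the difference itself, the interaction of side with stage over 12 libraries, gave 0.33 on the log2 scale (SE 0.097, adjusted p = 0.00838), where a positive value means a buccal level closer to the lingual one at the bell stage. In the buccal part Eda rose from cap to bell by 0.56 (SE 0.071, adjusted p = 5.53e-08), a value that came to 0.48, below the limit on the fold, without Cap-B replicate 2. In the lingual part the log2 fold change of Bell-L over Cap-L was 0.21 (adjusted p = 0.00432), below the limit on the fold, and the libraries of the stages did not overlap. The interaction of side with culture was 0.27 (SE 0.097, adjusted p = 0.0311), and was not called with all 24 libraries in 1 fit (adjusted p = 0.0514). It was lost (adjusted p between 0.0559 and 0.154) when Cap-L replicate 3, Cap-B replicate 2, Cap-L+2D replicate 1, Cap-L+2D replicate 2 or Cap-B+2D replicate 2 was left out. In culture, Cap-L+2D over Cap-L gave 0.083 (SE 0.059, adjusted p = 0.226) and Cap-B+2D over Cap-B 0.36 (SE 0.071, adjusted p = 4.53e-05), below the limit on the fold.

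In the undivided mesenchyme Eda had 11.8, 13.1 and 14.0 CPM at the cap stage and 19.6, 20.0 and 21.0 CPM at the bell stage. It rose by 0.62 on the log2 scale (SE 0.13, adjusted p = 0.0179). The call was lost without Cap-W replicate 2, Cap-W replicate 3 or Bell-W replicate 2, where the adjusted p was 0.0647, 0.0532 and 0.072. It held without both libraries that stood apart, Cap-W replicate 1 and Bell-W replicate 3 (0.54, adjusted p = 0.00718), an alternative chosen after seeing the data. Over all alternatives the adjusted p ranged from 7.1e-07 to 0.072. From high to low, the group means of Eda ran Bell-L (32.3), Cap-L+2D (29.6), Cap-L (28.1), Bell-W (20.2), Bell-B (17.9), Cap-B+2D (15.8), Cap-W (13.0) and Cap-B (12.1 CPM). Neighbors overlapped between Cap-L+2D and Cap-L and between Cap-W and Cap-B. At the cap stage the undivided mesenchyme thus overlapped with the buccal part and lay below the lingual part. Whole and divided tissue were not tested against each other.

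Edar, the gene of the receptor that binds the A1 form, was the member most reduced in culture and differed between the sides mainly at the cap stage. The gene (ENSMUSG00000003227) lies on chromosome 10, 58436611 to 58511476 on the minus strand, with 3637 bases of counted exons. In the parts taken directly from the embryo, Cap-L had 6.72, 6.07 and 6.39 CPM of Edar. Cap-B had 1.62, 2.05 and 2.45 CPM, below all of them, and Edar was lower there with a log2 fold change of -1.60 (SE 0.14, adjusted p = 2.23e-08), so that Cap-L had 3.04-fold the level of Cap-B. At the bell stage Bell-L had 6.31, 6.53 and 5.45 CPM and Bell-B 4.95, 4.62 and 4.73 CPM. These did not overlap either, but the log2 fold change of -0.35 (SE 0.10, adjusted p = 0.00725) was below the limit on the fold. In the buccal part Edar rose between the stages by 1.20 (SE 0.14, adjusted p = 1.69e-08), while Bell-L over Cap-L gave -0.060 (SE 0.12, adjusted p = 0.702). The interaction of side with stage was 1.25 (SE 0.17, adjusted p = 1.32e-06), and was not called with all 24 libraries in 1 fit (adjusted p = 0.0565).

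After culture Edar was near 1 CPM on both sides. Cap-L+2D had 1.56, 0.842 and 0.829 CPM, and the gene fell, with a log2 fold change over Cap-L of -2.61 (SE 0.16, adjusted p = 4.28e-13), or 6.10-fold. Cap-B+2D had 1.07, 0.940 and 1.33 CPM, and the gene fell from Cap-B with -0.90 (SE 0.19, adjusted p = 0.0001). The cultured sides overlapped, with a log2 fold change of 0.095 buccal over lingual (SE 0.24, adjusted p = 0.77). The interaction of side with culture was 1.70 (SE 0.28, adjusted p = 1.76e-05). Against the bell stage, which the embryo reaches over the same 2 days, Edar had a log2 fold change of -2.55 in Cap-L+2D (adjusted p = 1.41e-12) and of -2.10 in Cap-B+2D (adjusted p = 6.89e-14). In the undivided mesenchyme Edar had 4.11, 4.34 and 6.89 CPM at the cap stage and 4.42, 3.93 and 11.4 CPM at the bell stage. The high value belonged to Bell-W replicate 3, the library with 2379 CPM of epithelial markers. The log2 fold change of 0.35 (SE 0.44, adjusted p = 0.645) came to -0.31 without that library, and neither value was called.

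Eda2r, the gene of the receptor that binds the A2 form, ran the other way in culture. The gene (ENSMUSG00000034457) lies on chromosome X, 96377446 to 96420822 on the minus strand, with 5891 bases of counted exons. Cap-L had 1.07, 0.696 and 0.812 CPM and Cap-B 1.13, 0.753 and 0.934 CPM. These overlapped (buccal over lingual 0.16, SE 0.26, adjusted p = 0.645). Cap-L+2D had 4.6, 5.16 and 4.15 CPM, all above every library that had not been cultured. Eda2r rose there by 2.44 on the log2 scale (SE 0.18, adjusted p = 5.78e-12), or 5.44-fold. Cap-B+2D had 5.54, 5.26 and 5.00 CPM, and the gene rose from Cap-B by 2.47 (SE 0.16, adjusted p = 5.61e-15), or 5.55-fold. The interaction of side with culture was 0.020 (SE 0.28, adjusted p = 0.967), so that no difference between the sides in the change with culture was detectable at this depth.

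From cap to bell Eda2r rose in the lingual part. Bell-L had 2.09, 2.7 and 2.69 CPM, above all libraries of Cap-L, with a log2 fold change of 1.57 (SE 0.20, adjusted p = 3.33e-07). Bell-B had 1.15, 1.57 and 1.22 CPM, all above Cap-B, with 0.47 (SE 0.22, adjusted p = 0.0751). Without Cap-B replicate 1 that value was 0.61 (adjusted p = 0.0483) and was called. The difference between the sides was itself tested: the interaction of side with stage was -1.10 (SE 0.32, adjusted p = 0.00743), and Eda2r was lower in Bell-B than in Bell-L (log2 fold change -0.93, SE 0.18, adjusted p = 4.55e-05). In the undivided mesenchyme Eda2r had 1.39, 1.51 and 1.07 CPM at the cap stage and 1.15, 1.30 and 0.936 CPM at the bell stage, which overlapped (-0.25, SE 0.32, adjusted p = 0.646). Against the bell stage, Eda2r was higher by 0.88 (adjusted p = 9.74e-06) in Cap-L+2D and by 2.00 (adjusted p = 4.3e-14) in Cap-B+2D.

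Divided by exon length, so that genes can be compared, the receptor transcripts changed places in culture. The ratio of Eda2r to Edar, each in CPM per kb, was between 0.0509 and 0.429 in the 18 libraries that had not been cultured. It was 1.82, 3.78 and 3.09 in Cap-L+2D and 3.20, 3.45 and 2.32 in Cap-B+2D, so Eda2r exceeded Edar in all 6 cultured libraries and in none of the others. The ratio of Eda to Edar, on the same scale, was between 0.984 and 4.10 in the libraries that had not been cultured, between 10.1 and 19.6 in Cap-L+2D and between 6.26 and 9.18 in Cap-B+2D. The ligand transcript, per kb, was thus at least 10.1 times the Edar transcript in each cultured lingual library. In bulk RNA, fewer cells of a type and less RNA per cell cannot be told apart.

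**Figure D3:**
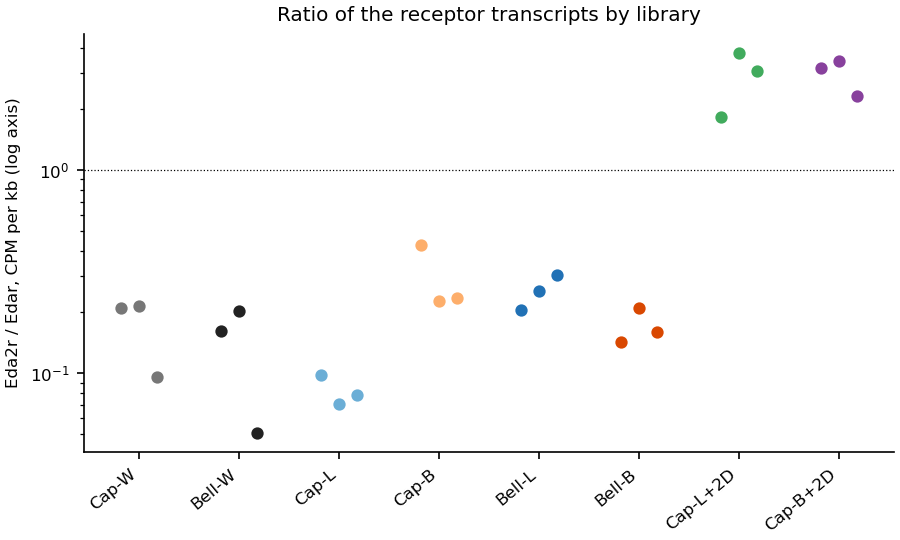
Ratio of Eda2r to Edar, each in CPM per kb of exon (vertical axis, log scale), in each library by group; the dotted line marks equal levels. The 6 cultured libraries lie between 1.82 and 3.78, and the other 18 at 0.429 or lower.

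Edaradd, the gene of the adaptor that binds the death domain of EDAR, was higher in the lingual part in all 3 settings and, unlike Edar, kept its side difference in culture. The gene (ENSMUSG00000095105) lies on chromosome 13, 12487513 to 12535319 on the minus strand, with 6668 bases of counted exons. Cap-L had 14.6, 12.3 and 14.1 CPM, and Cap-B 3.97, 4.27 and 4.01 CPM. No library of one side came near the other, and Edaradd was lower in Cap-B with a log2 fold change of -1.71 (SE 0.10, adjusted p = 1.12e-10), a 3.28-fold difference. Bell-L had 11.8, 11.0 and 11.6 CPM and Bell-B 8.07, 7.22 and 7.81 CPM, with a log2 fold change of -0.57 (SE 0.080, adjusted p = 1.49e-07). After culture the sides were furthest apart: Cap-L+2D had 9.93, 8.92 and 10.4 CPM and Cap-B+2D 2.25, 2.30 and 2.53 CPM. Edaradd was lower on the buccal side with -2.06 (SE 0.11, adjusted p = 1.76e-14), or 4.17-fold.

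In the buccal part Edaradd rose from cap to bell by 0.91 (SE 0.10, adjusted p = 4.97e-09) and fell in culture (Cap-B+2D over Cap-B -0.81, SE 0.13, adjusted p = 1.1e-06). In the lingual part the corresponding values were -0.24 (adjusted p = 0.0169) and -0.47 (SE 0.083, adjusted p = 2.28e-05), both below the limit on the fold. The culture value reached -0.54 without Cap-L replicate 2 and -0.53 without Cap-L+2D replicate 3 and was then called. The interaction with stage was 1.13 (SE 0.13, adjusted p = 3.64e-08), and the interaction with culture -0.35 (SE 0.15, adjusted p = 0.0782). The second was called only without Cap-L+2D replicate 2 (-0.41, adjusted p = 0.0414). Against the bell stage, Cap-B+2D was lower (log2 fold change -1.72, adjusted p = 1.38e-15) and Cap-L+2D gave -0.23 (adjusted p = 0.0235).

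The highest Edaradd level of the series was in the undivided cap mesenchyme, with 17.6, 21.2 and 21.8 CPM, above both parts of the same stage. Bell-W had 8.00, 7.82 and 14.8 CPM, the last again in replicate 3. The gene fell from Cap-W to Bell-W (log2 fold change -0.999, SE 0.27, adjusted p = 0.0419). The call was lost without Cap-W replicate 2, Cap-W replicate 3, Bell-W replicate 1 or Bell-W replicate 2 (adjusted p between 0.111 and 0.142). Without Cap-W replicate 1 and Bell-W replicate 3 together it was -1.44 (adjusted p = 0.000143), and over all alternatives the adjusted p ranged from 3.29e-05 to 0.142. The ratio of Edaradd to Edar per kb was between 0.708 and 2.66 outside culture. It was between 3.47 and 6.87 in Cap-L+2D and between 1.04 and 1.33 in Cap-B+2D, so the adaptor exceeded the receptor most in the cultured lingual part. Undivided cap mesenchyme lay outside both parts in other lists given below as well. Macrophage markers summed to a mean of 33.1 CPM in Cap-W, 60.2 in Cap-L and 66.5 in Cap-B. Immediate-early genes summed to 1463, 4268 and 4195 CPM, and skeletal muscle markers to 18.6, 22.7 and 247 CPM. Epithelial markers in Cap-W (538 CPM) lay between the parts (589 and 420 CPM). Levels of whole and divided tissue are thus not directly comparable, and the reason was not tested.

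Traf6, the gene of a ubiquitin ligase that many receptors share, moved least. It was called in 0 of the 10 comparisons of 2 groups by edgeR and by DESeq2, and passed edgeR's adjusted p alone in 4. The gene (ENSMUSG00000027164) lies on chromosome 2, 101508774 to 101532014 on the plus strand, with 7883 bases of counted exons. Its group means lay between 26.8 CPM (Cap-L+2D) and 47.0 CPM (Cap-W). Cap-W, at 45.2 to 48.8 CPM, and Cap-L+2D, at 25.9 to 27.6 CPM, stood outside the ranges of all other groups, whose neighbors overlapped. Buccal over lingual, the log2 fold change was 0.20 at the cap stage (adjusted p = 0.0079), 0.094 at the bell stage (adjusted p = 0.135) and 0.46 after culture (SE 0.052, adjusted p = 3.25e-08). The interaction of side with culture was 0.26 (SE 0.075, adjusted p = 0.00698), the interaction with stage -0.11 (adjusted p = 0.268). Interactions were called at the adjusted p alone, and 5 members were called for stage (32.5% of all genes) and 4 for culture (35.5% of all genes). When all 24 libraries entered 1 fit, the interactions of Edar with stage (adjusted p = 0.0565), of Nfkbia with stage (0.311) and culture (0.153) and of Eda with culture (0.0514) were no longer called.

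Nfkbia, the gene of IκBα, was raised in culture on both sides and at the bell stage in the lingual part. The gene (ENSMUSG00000021025) lies on chromosome 12, 55536195 to 55539432 on the minus strand, with 1610 bases of counted exons. Cap-L had 42.5, 45.3 and 42.6 CPM, and Cap-B 44.7, 44.4 and 47.1 CPM. These overlapped (buccal over lingual 0.087, SE 0.050, adjusted p = 0.178). Cap-L+2D had 106, 99.1 and 101 CPM, and Nfkbia rose there by 1.24 on the log2 scale (SE 0.046, adjusted p = 1.13e-17), or 2.35-fold. Cap-B+2D had 82.4, 85.8 and 87.7 CPM, and the gene rose from Cap-B by 0.89 (SE 0.045, adjusted p = 6.54e-18), or 1.85-fold. The rise was larger on the lingual side, with an interaction of -0.35 (SE 0.066, adjusted p = 7.78e-05). That interaction was not called with all 24 libraries in 1 fit (adjusted p = 0.153).

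Bell-L had 65.2, 63.3 and 64.6 CPM of Nfkbia, and the gene rose from Cap-L by 0.57 (SE 0.047, adjusted p = 2.04e-10). Bell-B had 51.9, 58.4 and 58.1 CPM, with 0.30 over Cap-B (SE 0.047, adjusted p = 3.54e-06), below the limit on the fold. The interaction of side with stage was -0.29 (SE 0.068, adjusted p = 0.00139), and was not called with all 24 libraries in 1 fit (adjusted p = 0.311). Buccal over lingual, Nfkbia had -0.20 at the bell stage (adjusted p = 0.000165) and -0.26 after culture (adjusted p = 6.83e-06), neither past the limit on the fold. Both cultured parts were above the bell stage parts, by 0.66 (adjusted p = 2.99e-12) on the lingual and 0.59 (adjusted p = 7.16e-14) on the buccal side. In the undivided mesenchyme Nfkbia had 52.3, 43.1 and 39.5 CPM at the cap stage and 44.8, 63.8 and 65.3 CPM at the bell stage, which overlapped (0.35, SE 0.17, adjusted p = 0.212).

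The promoters of Nfkbia and Edar are shown because both genes were called in culture on both sides, in opposite directions, and because Nfkbia is known as a target gene of NF-κB and Edar as one of Wnt signaling. They are the 250 bases before the RefSeq gene start on GRCm38.p6, a different build from that of the counts, written 5′ to 3′ on the gene's strand. In Nfkbia the capitals mark a match, on the opposite strand, to the NF-κB motif GGGNNTTTCC, 29 to 20 bases before the start. In Edar they mark a match to the LEF/TCF motif CTTTGAT, 233 to 227 bases before the start.
Nfkbia, chr12:55492648-55492897, minus strand: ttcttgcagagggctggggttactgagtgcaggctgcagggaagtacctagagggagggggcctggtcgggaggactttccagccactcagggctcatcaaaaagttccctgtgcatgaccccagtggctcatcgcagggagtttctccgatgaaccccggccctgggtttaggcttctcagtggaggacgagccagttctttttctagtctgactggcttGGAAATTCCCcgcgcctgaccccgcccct
Edar, chr10:58675697-58675946, minus strand: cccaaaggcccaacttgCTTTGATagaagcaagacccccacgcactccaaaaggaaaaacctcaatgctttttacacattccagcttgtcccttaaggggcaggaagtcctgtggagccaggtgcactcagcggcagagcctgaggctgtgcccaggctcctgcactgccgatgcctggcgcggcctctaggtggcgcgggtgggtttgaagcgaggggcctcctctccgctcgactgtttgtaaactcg

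All 6 members had a promoter in the table, and both strands were searched. Nfkbia alone among them held the motif GGGNNTTTCC, which 1.41% of the 32851 promoters held. Edar alone held CTTTGAT, which 3.21% of the promoters held. The looser NF-κB motif GGGNNNNNCC, which contains every match of the stricter one, was found in all members except Edaradd and in 45.8% of all promoters. A match is a description of the letters and was not tested as a binding site. Eda2r was also called in culture on both sides, but its promoter is not shown and no p53 motif was searched.

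The other genes of the pathway were taken in lists. Where 0 genes of a list are given as called in a direction, at most 2 of them had an unadjusted p under 0.05 in that direction in edgeR's test unless another number is given, and DESeq2 called 0. The relay between the receptors and NF-κB, 15 genes that include the TRAF, TAB, TAK1 and IκB kinase genes, moved little. At most 2 of the 15 were called in a comparison of 2 groups, where between 12.9% and 35.4% of all genes were called. The summed level lay between 799 and 942 CPM in all 24 libraries. Smaller shifts were present. In Cap-L+2D over Bell-L, 1 was called higher and 0 lower (31.2% of all genes called). At an unadjusted p under 0.05 in edgeR's test, 8 were lower. The share of all genes at that unadjusted p was not counted. The list median in Cap-L+2D over Bell-L was -0.23, against -0.01 over all genes tested. In Bell-W over Cap-W, 1 was called higher and 0 lower (14.5% of all genes called), and 5 were lower at that unadjusted p. Between Cap-L+2D and Cap-L, Furin, the protease that releases ectodysplasin, rose by 0.51 on the log2 scale and Tab3, a partner of TAK1, had -0.51. Between Cap-B+2D and Cap-B, Traf5 rose by 0.71 and Tab3 had -0.58, all of them called. Traf1, an adaptor that NF-κB itself induces, rose from Cap-L to Bell-L by 0.89, from Cap-B to Bell-B by 1.37 and from Cap-W to Bell-W by 2.50.

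Of 9 genes for subunits and inhibitors of NF-κB, 7 rose and 0 fell between Cap-L+2D and Cap-L, with a list median of 0.98 on the log2 scale against -0.03 over all genes tested, of which 35.4% were called. On the buccal side 6 rose and 0 fell (median 0.63, against -0.02 and 34.5%). Bcl3, an IκB-like coactivator, rose from 7.19 to 56.7 CPM on the lingual side and from 2.85 to 35.2 CPM on the buccal side. Nfkb2, the p100 subunit, rose by 1.26 and 0.92, and Relb, its partner, by 1.24 and 1.49. Part of the exon bases of Nfkb2 overlap another gene (20.5%), and its values are uncertain to that extent. Of the 9, 0 were called between Bell-L and Cap-L in edgeR's test, where 20.0% of all genes were. At an unadjusted p under 0.05 in that test, 5 of the 9 were higher and 0 lower, and DESeq2 called 0.

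Among 14 genes known to respond to NF-κB, of which 5 are also in the list of subunits or the relay, 12 rose and 0 fell in cultured lingual mesenchyme and 9 rose and 0 fell in cultured buccal mesenchyme. The medians were 1.25 and 0.80, against -0.03 and -0.02 over all genes tested, of which 35.4% and 34.5% were called. Cxcl10, a chemokine, rose by 3.97 on the lingual and 3.05 on the buccal side, and Ccl2, a chemokine that draws monocytes, by 3.49 and 2.81. From cap to bell 8 of the 14 rose in the lingual part, where 20.0% of all genes were called, and 7 in the buccal part, where 18.7% were, and 0 fell (medians 0.64 and 0.50). Buccal over lingual, 4 were lower at the cap stage (17.5% of all genes called), 7 at the bell stage (12.9%) and 8 after culture (25.1%). In each setting 0 were higher. Other lists moved with these. The 7 macrophage markers summed to between 58.5 and 69.7 CPM in the cap parts, 234 to 248 CPM in Cap-L+2D and 155 to 167 CPM in Cap-B+2D. At the bell stage they summed to 198 to 202 CPM in Bell-L, where 7 of 7 had risen from Cap-L, and to 124 to 129 CPM in Bell-B, where 6 of 7 had risen from Cap-B. Buccal over lingual, 5 of the 7 were lower at the bell stage (12.9% of all genes called) and 5 after culture (25.1%). At the cap stage 1 was higher (17.5%). The 9 immediate-early genes, such as Fos, summed to between 4132 and 4346 CPM in the cap parts, between 5367 and 5739 CPM in the bell parts and between 6066 and 9956 CPM in the cultured parts. The part of both lists in the changes of Nfkbia and of the response genes was not tested.

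Of 10 genes known as targets of p53, 5 rose and 0 fell in the cultured lingual part (median 0.57, against -0.03 over all genes, of which 35.4% were called), and 7 rose and 0 fell in the cultured buccal part (median 0.70, against -0.02 and 34.5%). Cdkn1a, the gene of the cell-cycle inhibitor p21, rose from 14.9 to 113 CPM and from 11.7 to 187 CPM, and Bbc3, a promoter of apoptosis, rose from 4.56 to 16.7 CPM and from 4.39 to 18.2 CPM. Sesn2, a stress-response gene, rose by 1.15 and 1.92 on the log2 scale. Between Bell-L and Cap-L 3 of the 10 rose and 0 fell, near the 20.0% of all genes that were called, and the list median was 0.05, against 0.0017 over all genes.

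**Figure D4:**
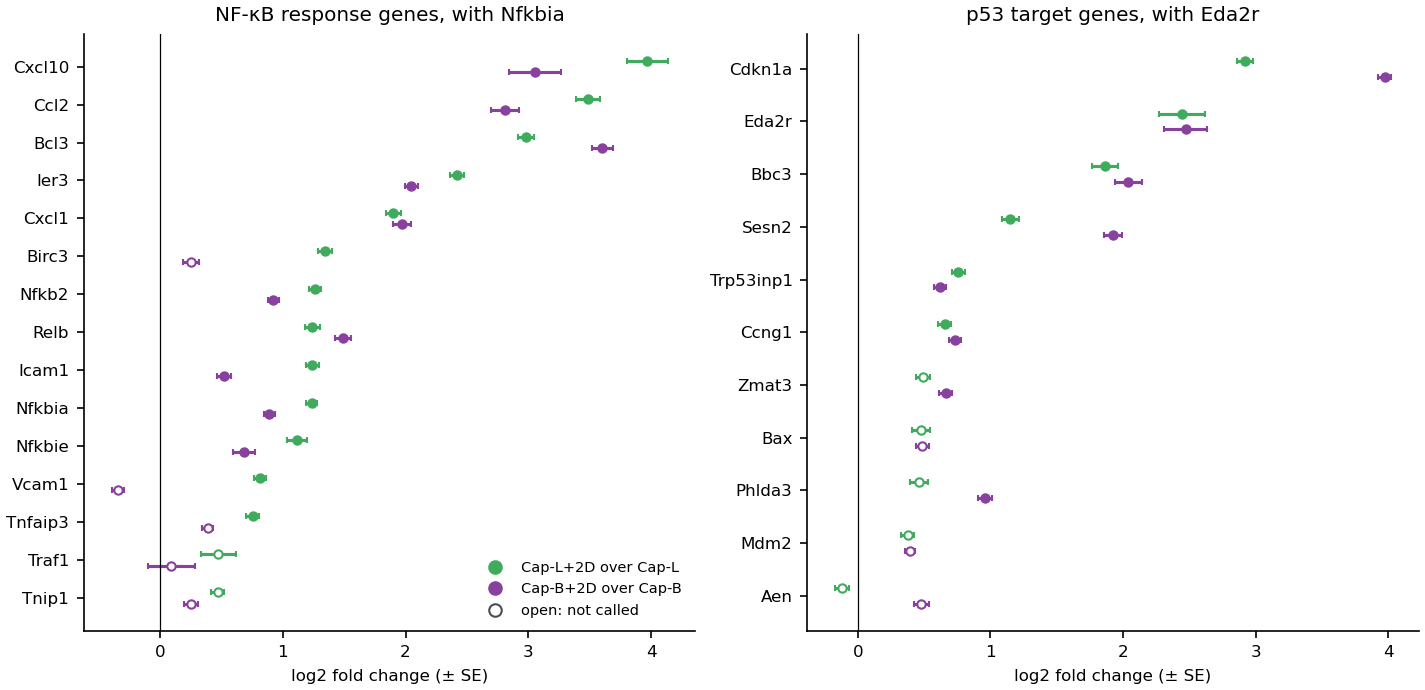
Log2 fold change in culture (horizontal axis, bars are the SE from edgeR) of 14 NF-κB response genes with Nfkbia, left, and 10 p53 target genes with Eda2r, right; green is Cap-L+2D over Cap-L, purple Cap-B+2D over Cap-B, and open points were not called. Eda2r ranked second to Cdkn1a among the p53 targets on both sides, and Nfkbia lay at 1.24 and 0.89, near the middle of the NF-κB list.

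Genes known as targets of the pathway in skin and tooth split by setting. At the cap stage 7 of the 12 that could be tested were lower in Cap-B than in Cap-L and 0 were higher, with a median of -0.66 against -0.01 over all genes, of which 17.5% were called. Fst, the gene of the activin antagonist follistatin, had 64.7 CPM in Cap-L and 11.8 CPM in Cap-B. Foxi3, a transcription factor of ectodermal organs, had 4.14 and 0.767 CPM, and Fgf20, a growth factor of the enamel knot, had 3.71 and 0.477 CPM. At the bell stage 3 of 13 were lower in the buccal part and 0 higher (median -0.32, with 12.9% of all genes called), Foxi3 and Fst among them (-0.83 and -0.79). After culture 8 of 12 were lower in the buccal part (median -1.16, with 25.1% of all genes called) and Wnt10a was higher by 0.51. The 14 epithelial markers, given below, had medians of -0.77, -0.52 and -3.03 in these 3 comparisons. Their part in the differences of the targets was not tested.

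From cap to bell, 8 of 14 targets rose and 1 fell in the lingual part (median 0.86, against 0.0017 over all genes, of which 20.0% were called). In the buccal part 10 of 13 rose and 0 fell (median 1.91, against 0.0050 and 18.7%). Shh, a signal of the enamel knot whose exon bases overlap another gene in part (15.7%), had 0.237 CPM in Cap-L and 13.9 CPM in Bell-L, and 0.0948 CPM, within the range of the floor, in Cap-B and 10.6 CPM in Bell-B. Fgf20 was the one that fell, from 3.71 to 0.435 CPM on the lingual side. In culture, where 35.4% of all genes were called on the lingual side and 34.5% on the buccal side, the list went both ways. On the lingual side 6 were higher and 3 lower, and on the buccal side 6 higher and 4 lower (medians 0.11 and 0.10). Among the latter 4 was Shh, at 0 counts in all 3 libraries of Cap-B+2D and near the floor in Cap-B. The chemokine genes Cxcl10 and Cx3cl1 were among those that rose. Foxi3 fell from 4.14 to 1.21 CPM on the lingual side and from 0.767 to 0.0812 CPM, within the range of the floor, on the buccal side.

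Of 7 genes known to act upstream of Eda or Edar, 5 fell and 0 rose in culture on each side, with medians of -1.14 and -1.01 against -0.03 and -0.02 over all genes, of which 35.4% and 34.5% were called. On the lingual side Acvr2b, an activin receptor, fell by 1.95, Trp63, the p63 gene of epithelial cells, by 1.64, and Wnt6 by 1.35. Trp63 is also among the epithelial markers given below, and the part of those markers in the changes of this list was not tested. On the buccal side Inhba, the activin subunit known to induce Edar, fell by 1.55. Lef1, a transcription factor of the Wnt pathway known to act on the Eda promoter, was higher in the buccal part at the cap stage (114 CPM in Cap-B and 70.2 CPM in Cap-L), at the bell stage (91.6 and 60.9 CPM) and after culture (69.7 and 31.8 CPM), the opposite side from Eda. Inhba was higher on the lingual side in all 3 settings, at 193 and 95.6 CPM in the cap parts, 185 and 125 CPM in the bell parts and 108 and 33.1 CPM in the cultured parts.

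Other members of the same receptor and ligand families changed as well. Of 10 related receptors, 6 rose and 1 fell in the cultured lingual part (median 0.59, against -0.03 over all genes, of which 35.4% were called), and 7 rose and 0 fell in the cultured buccal part (median 0.79, against -0.02 and 34.5%). Tnfrsf12a, the TWEAK receptor, rose from 11.8 to 46.5 CPM and from 6.26 to 37.4 CPM, and Tnfrsf11b, the decoy receptor osteoprotegerin, from 6.03 to 23.7 CPM and from 1.95 to 6.25 CPM. Between the cap parts, 4 of the 10 receptors were lower in Cap-B and 1 was higher (17.5% of all genes called). Ngfr, the neurotrophin receptor, had 114 CPM in Cap-L and 28.7 CPM in Cap-B. Cd40, the 1 that was higher in Cap-B, had 3.51 CPM in Cap-L and 7.29 CPM in Cap-B. Of 8 related ligands, 6 could be tested on the lingual side. In culture 4 of these rose and 0 fell (median 0.91, against -0.03 over all genes, of which 35.4% were called). Tnfsf11, the gene of RANKL, rose there from 8.81 to 29.4 CPM. Lta rose from 0.459 to 0.884 CPM and Tnfsf13b from 0.275 to 0.542 CPM, both at low levels.

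Epithelial markers moved with several members in some comparisons and not in others, and are given beside them. Between the cap parts, where 17.5% of all genes were called, 11 of the 14 markers were lower in Cap-B and 0 were higher. Their summed level was 565 to 621 CPM in Cap-L and 411 to 432 CPM in Cap-B. Krt8 and Krt18, simple-epithelium keratins, had -1.35 and -1.04, and the median of the list was -0.77. At the bell stage 7 of 14 were lower in the buccal part (12.9% of all genes called). The sums were 889 to 923 CPM in Bell-L and 635 to 658 CPM in Bell-B. From Cap-B to Bell-B, where Edar and Edaradd rose, 11 of the 14 rose and 1 fell (18.7% of all genes called). From Cap-L to Bell-L, where neither Edar nor Edaradd was called, 6 of the 14 rose and 0 fell (20.0% of all genes called).

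In culture, Cap-L+2D had a summed marker level of 463 to 499 CPM against 565 to 621 CPM in Cap-L. Of the 14, 7 fell and 2 rose (35.4% of all genes called). Grhl2, an epithelial transcription factor, fell by 1.72, and Krt15, a basal keratin, rose by 0.75. In Cap-B+2D, 13 of the 14 fell and 1 rose (34.5% of all genes called). Against Cap-L+2D, 12 were lower in Cap-B+2D and 1 was higher (25.1% of all genes called), while the Edar levels of these groups overlapped. The sum was between 97.6 and 98.0 CPM in the 3 libraries of Cap-B+2D, the lowest of the series. Skeletal muscle markers, a list of 11, had a higher sum in the buccal part in all 3 settings, and a higher sum after culture and at the bell stage on both sides. The sums were 22.4 to 23.1 CPM in Cap-L and 236 to 257 CPM in Cap-B, 129 to 137 CPM in Bell-L and 996 to 1028 CPM in Bell-B, and 340 to 364 CPM in Cap-L+2D and 4130 to 4407 CPM in Cap-B+2D. In the undivided mesenchyme they were lower, at 14.3 to 21.3 CPM in Cap-W and 9.00 to 18.9 CPM in Bell-W. Of those that could be tested, 9 of 9 were higher in the buccal part at the cap stage, 9 of 10 at the bell stage and 9 of 9 after culture, and 0 were lower. Of all genes, 17.5%, 12.9% and 25.1% were called in these comparisons. The part of the cell types in the differences of Eda, Edar, Eda2r, Edaradd, Nfkbia and the pathway's targets was not tested.

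**Figure D5:**
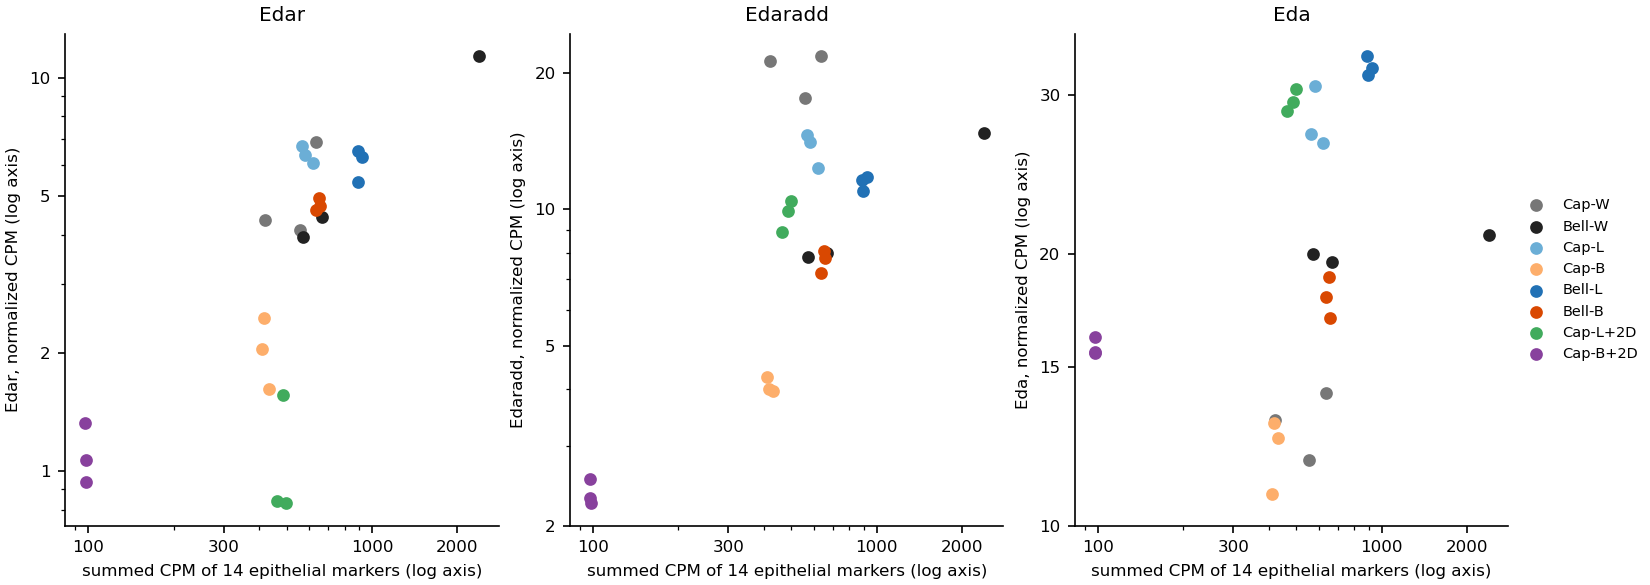
Normalized CPM of Edar, Edaradd and Eda (vertical axes, log scale) against the summed CPM of 14 epithelial markers (horizontal axes, log scale) in the 24 libraries, colored by group. Bell-W replicate 3, at 2379 CPM of markers, has the highest Edar level (11.4 CPM). Cap-L+2D lies near 1 CPM of Edar at summed marker levels close to those of Cap-B. The sum does not show each marker: from Cap-L to Cap-L+2D, 7 of the 14 fell and 2 rose. Trp63, among the 14, had 42.7 CPM in Cap-L, 13.7 CPM in Cap-L+2D and 22.7 CPM in Cap-B.

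The genes whose pattern over the 24 libraries was most like that of each member were named from the Pearson correlation of log2 CPM with 14024 genes. These are descriptions over libraries that share groups and depth, and carry no test. For Eda they were Cpq (0.95), Fez2 (0.94) and Col8a1 (0.94), the last a collagen. Edar was closest to Tcaf2 (0.96), Trp63 (0.94) and Tedc1 (0.94), so that an epithelial marker was among its nearest genes. Eda2r was closest to Zfp719 (0.94), Tpp1 (0.93) and Gm5738 (0.92). For Edaradd they were Penk (0.95), BC064078 (0.94) and St6gal2 (0.93), and for Traf6 Utp20 (0.95), Mtrex (0.95) and Ckap5 (0.94). Nfkbia was closest to Abhd4, Tpp1 and Lamp1 (each 0.96), the last 2 being lysosomal genes.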

How the data were processed

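The authors deposited raw counts of read pairs per gene, without normalization, in 1 table of 56748 genes and 24 libraries. Per the file headers, featureCounts summed the exons of a gene and counted pairs. The annotation was Ensembl release 107 on GRCm39 according to the study's methods, strand was ignored, and pairs mapped to several places or genes were left out. The submitters' processing notes list FastQC 0.12.1, Trimmomatic 0.39, Bowtie 1.2.3, Subread 2.0.3 and DESeq2 1.40.2, the study's methods name other tools, and library kits are given differently in the labels and the methods. None of the members shares exon bases with another gene (0%).

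Symbols were matched by identifier to GENCODE M39, which named 56017 genes. Totals ranged from 20581720 to 39266497 (median 27677164), so a floor of 3 counts was 0.0764 to 0.146 CPM, counting error only. Groups were fitted in R 4.3.3 with edgeR 4.0.16 (TMM, filterByExpr, quasi-likelihood test, Benjamini-Hochberg adjustment over all genes). Calls between 2 groups needed an adjusted p below 0.05 and a log2 fold change beyond 0.5 in either direction, interactions the adjusted p alone. Side and the undivided stages were fitted on 6 libraries, the groups of 1 side on 9, the interactions on 12. The SE is the log2 fold change divided by the root of the F statistic. Comparisons with a shared group, such as those against Cap-L or Cap-B, are not independent. The scripts were tested on simulated counts with 200 changed genes. Files were read and figures drawn with Python 3.11.15.

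The members and the gene lists were chosen with earlier results of these data known, so counts over the lists are descriptions. Named were the 6 members, up to 3 called genes per direction, list and comparison, and the 3 genes most correlated with each member among those with a mean log2 CPM of at least 2 (prior count of 1). Promoters are from RefSeq on GRCm38.p6, matched by symbol.

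Alternatives were DESeq2 1.42.0, RLE normalization, dropping the filter on low counts, a stricter filter of 10 counts per library, no limit on the fold, the replicate number as a block, all 24 libraries in 1 fit, the 100 most abundant genes left out, and each library left out in turn. Leaving out Cap-W replicate 1 with Bell-W replicate 3 was added after seeing the data.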

Additional observations from a re-analysis of the deposited data

Results flagged for a closer look

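The difference between the buccal and lingual parts changed between the stages for 5 members and between fresh and cultured tissue for 4, by the interaction term in edgeR's quasi-likelihood test over 12 libraries each. From cap to bell, the log2 buccal-over-lingual difference moved by 0.33 for Eda, 1.25 for Edar, -1.10 for Eda2r, 1.13 for Edaradd and -0.29 for Nfkbia. In culture it moved by 0.27 for Eda, 1.70 for Edar, 0.26 for Traf6 and -0.35 for Nfkbia. Of all genes tested, 32.5% and 35.5% passed the same tests, so such changes were common in these libraries. The comparisons share the cap parts and are not independent of each other. Over the alternatives tried, the adjusted p of Eda ranged from 0.000644 to 0.0415 for stage and from 0.00994 to 0.154 for culture. Epithelial markers moved with side in each setting, and their part in these differences was not tested.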

How the results depend on the processing

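Of 1014 member values under the alternatives, 979 kept their direction and side of the threshold, 17 were no longer called, 4 were newly called and 14 turned direction, none of them called. For each of these the cause was not tested. Without a limit on the fold, the members called rose by construction from 3 to 5 between Bell-B and Bell-L, from 2 to 4 between Cap-B+2D and Cap-L+2D, from 2 to 4 between Bell-L and Cap-L, from 3 to 5 between Cap-L+2D and Cap-L and from 3 to 5 between Cap-L+2D and Bell-L. With all 24 libraries in 1 fit, 3 in place of 5 members were called for the interaction with stage, where Edar (adjusted p = 0.0565) and Nfkbia (0.311) were lost, and 2 in place of 4 for the interaction with culture, where Eda (0.0514) and Nfkbia (0.153) were lost. Over all genes that fit called 2581 in place of 7137 for stage, 4048 in place of 7842 for culture and 5887 in place of 3037 between Bell-W and Cap-W.

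With 1 library left out, 0 to 2 members were called between Bell-W and Cap-W, 2 to 4 between Bell-B and Cap-B, 3 to 4 between Cap-L+2D and Cap-L and for the interaction with culture, and the counts of the other 8 did not move. Between Bell-W and Cap-W, 1758 genes were called without Cap-W replicate 3 and 1832 without Bell-W replicate 2.

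With single libraries left out, Edar ranged from -0.31 to 0.63 in Bell-W over Cap-W, from -0.086 to 0.41 in Cap-B+2D over Cap-L+2D and from -0.11 to 0.018 in Bell-L over Cap-L, Traf6 from -0.047 to 0.025 in Bell-L over Cap-L, and the interaction of Eda2r with culture from -0.16 to 0.17. Edar turned to -0.31 (Bell-W over Cap-W without Bell-W replicate 3), -0.42 (without Cap-W replicate 1 as well), -0.028, -0.086 and -0.043 (Cap-B+2D over Cap-L+2D without Cap-L+2D replicate 2, Cap-L+2D replicate 3 and Cap-B+2D replicate 3) and 0.018 (Bell-L over Cap-L without Bell-L replicate 3). Traf6 in Bell-L over Cap-L turned to -0.014 without the filter, -0.047 without Cap-L replicate 2, -0.023 without Bell-L replicate 3 and -0.0090 in the fit of all libraries. The interaction of Eda2r with culture turned to -0.16, -0.11, -0.067 and -0.017 without Cap-L replicate 1, Cap-B replicate 2, Cap-L+2D replicate 3 and Cap-B+2D replicate 1.

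Same-numbered libraries of compared groups did not deviate together (correlations between -0.042 and 0.085), so the numbers do not pair them. A fit with the replicate block was run all the same, and the members called stayed at 2 between Bell-W and Cap-W and at 3 between Cap-B and Cap-L, and 0 of 72 member calls changed. Eda2r, at 18 to 202 counts, and Edar, at 24 to 352, are the members for which depth limits precision most.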
